A study of Mus musculus with 6 samples.

Results

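Endothelial cells line the blood vessels and the inner wall of the heart. This account follows 31 genes that mark or serve them, read from a table of 49315 mouse genes. The list is one of gene names with endothelial roles, not of measured values. It was, however, chosen with earlier results of these data known. The 31 were matched by symbol through the GENCODE annotation of GRCm38; all of them were found, and all passed the filter on low counts, as did 12777 genes in all. The gene counts came from bulk RNA sequencing of hearts of C57BL/6 mice, 3 labelled wild-type (Txnip WT) and 3 labelled conditional knock-in (Txnip C247S mutant). Txnip is the thioredoxin-interacting protein, and the mutation replaces one of its cysteines with serine. MerCreMer, a Cre recombinase that tamoxifen activates, and 4-hydroxytamoxifen are named for the hearts of both genotypes, so both carry the drug treatment in the labels. Whether wild-type hearts also carried the recombinase, and which promoter drove it, were not given in the sources used here, and neither were age and sex. The cells in which the allele was changed can therefore not be named.

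In the heart, a dense capillary bed supplies the muscle with oxygen and fatty acids. Its endothelial cells hold together through VE-cadherin and claudins, and survive and sprout under vascular endothelial growth factor (VEGF), angiopoietin and apelin signals. They release nitric oxide, and they carry fatty acids from lipoproteins across the vessel wall. Transcription factors of the ETS and SOX families keep many of these genes on.

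The 6 libraries held 14146048 to 15620476 counts. Txnip, the mutated gene, had 752 ± 35.3 CPM (counts per 1000000 after TMM scaling; SD, n = 3) in wild-type and 420 ± 25.0 CPM in knock-in hearts, a log2 fold change of −0.84 ± 0.09 (SE, edgeR adjusted p = 0.00379). A gene count does not read the mutated codon. Across all genes, 38 of 12777 (0.297%) passed an adjusted p under 0.05. The labels describe separate hearts, and the p-values set the genotype difference against the spread among these 6 within each genotype.

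Bulk counts cannot show which cells the transcripts came from, so the endothelial label rests on the known roles of the genes. Every member was detected in every heart, with 46 counts (Sox17) to 8485 counts (Aqp1) per library, and 30 of 31 had at least 100 counts in each. Markers of other heart cells were as well detected: the 10 fibroblast markers summed to 1453 to 1826 CPM and the 12 mural cell markers to 812 to 990 CPM. The 8 lymphocyte markers reached at most 2.57 CPM and the 6 mesothelial markers at most 6.34 CPM in sum. The 31 members summed to 2902, 2366 and 2151 CPM in wild-type and 3225, 2128 and 3069 CPM in knock-in hearts, 0.208% to 0.317% of all counts. The genotypes overlapped in this sum, and both its highest and its lowest heart were knock-in hearts. Markers of heart muscle cells summed to 84130 to 87410 CPM in wild-type and 92800 to 103400 CPM in knock-in hearts, and macrophage markers to 336 to 388 CPM and 255 to 273 CPM. The mural cell sum was 959 to 990 CPM in wild-type and 812 to 944 CPM in knock-in hearts. It included Acta2, at 177, 209 and 182 CPM in wild-type and 74.2, 93.7 and 72.5 CPM in knock-in hearts. Of the 12 mural genes, 7 had a positive log2 fold change, so the mural list did not go one way. The heart muscle, macrophage and mural lists thus separated the genotypes by sum, and their part in the members' values was not tested. In each of these lists 1 gene passed in edgeR, where 0.297% of all genes did. They were Myl2 (log2 fold change 0.55 ± 0.09), Lyz2 (−0.60 ± 0.10) and Acta2 (−1.24 ± 0.12), with adjusted p = 0.0399, 0.0399 and 0.00268. In bulk tissue, a different number of endothelial cells and a different amount of RNA per cell cannot be told apart.

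Levels between genes were compared as CPM per kilobase of the longest coding transcript, averaged over the 6 hearts. Fabp4, the fatty acid binding protein of capillaries, stood highest at 485 ± 93.0 (SD, n = 6). Aqp1, a water channel, followed at 170 ± 38.4, and its range of 118 to 220 lay below that of Fabp4, 354 to 588. The ranges of Aqp1 and of Ly6c1, at 148 ± 35.5, overlapped. Ly6a reached 102 ± 12.6, and Rgcc, Pecam1 and Gpihbp1 lay close together at 44.6, 43.7 and 41.8 CPM per kilobase. At the low end were the transcription factor gene Sox17 (1.96 ± 0.644), the endothelin receptor gene Ednrb (3.49 ± 0.587) and the apelin gene Apln (4.35 ± 0.566). Neighbours among these 3 overlapped in range, while Sox17, at most 2.75, lay below every value of Apln, at least 3.53.

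No endothelial gene of the 31 passed the test between the genotypes. With edgeR, 0 of 31 had an adjusted p under 0.05, against 0.297% of all genes (0.11% higher and 0.188% lower in the knock-in). DESeq2 also gave 0 of 31, against 1.17% of all genes, and limma-voom 0 of 31. The adjusted p-values of edgeR ran from 0.442 to 0.976. At an unadjusted p under 0.05 there were 2 of 31, against 9.97% of all genes: Aqp1 was higher in the knock-in, as 4.74% of all genes were, and Apln lower, as 5.23% were. In 1 of 31, Apln, the hearts of one genotype lay outside the range of the other, against 16.1% of all genes (8.12% higher and 7.99% lower).

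The signs of these 31 members leaned one way. Of the 31 log2 fold changes (knock-in over wild-type), 24 were positive and 7 negative, with a median of 0.15, against 48.3% positive and a median of −0.0068 over all genes. RLE, upper-quartile and library-size scaling, which shift all genes of a heart alike, each gave the same 24 and 7. Leaving out 1 heart moved the count, from 18 positive and 13 negative without knock-in replicate 1 to 26 and 5 without knock-in replicate 2. Of the 31, 28 lay within 0.5 of 0 (90.3%), as 92.1% of all genes did. A list of 20 further endothelial genes, none of them members, leaned the other way, with 7 positive, 13 negative and a median of −0.0615. An unadjusted p under 0.05 in edgeR was reached by 2 of these 20 (10%), both lower in the knock-in. Of all genes, 9.97% reached it, 5.23% lower. The smallest p was that of Tspan13 (−0.28 ± 0.11, edgeR adjusted p = 0.428), lower without overlap, as 7.99% of all genes were. All members were read from the same 6 hearts, so their signs are not independent.

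The median rested on single hearts. It was 0.34 without wild-type replicate 1 and 0.34 without knock-in replicate 2, but 0.054 without wild-type replicate 3 and 0.050 without knock-in replicate 1. Without wild-type replicate 2 it was 0.14 and without knock-in replicate 3 it was 0.12. Over the same 6 fits, the median of all genes stayed between −0.010 and 0.0094. The sign of 23 members was the same in all 17 alternatives, and that of 8 turned in at least 1 (Flt1, Eng, Esam, Ly6a, Sox17, Aplnr, Timp4 and Podxl). Signs turned only in fits with hearts left out. Of the 17, 1 changed only the adjusted p threshold, so no sign could turn in it.

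**Figure D1:**
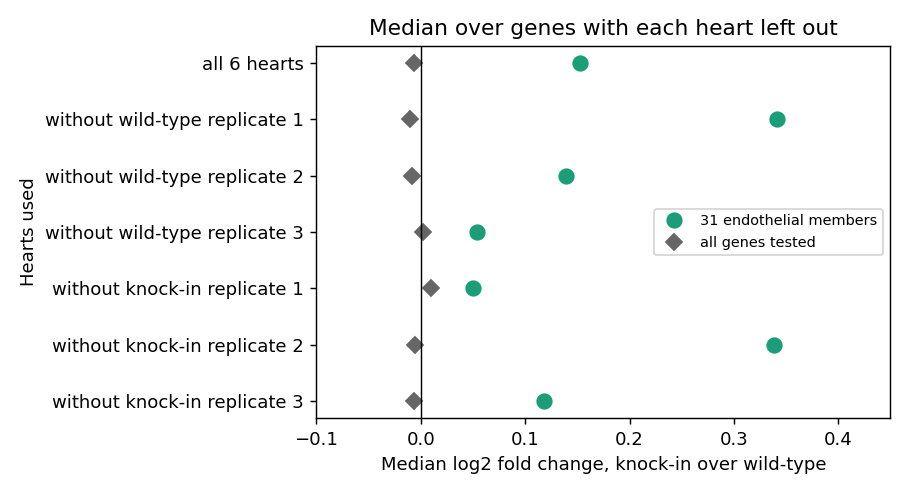
Median log2 fold change (knock-in over wild-type, horizontal axis) with all 6 hearts and with each heart left out (vertical axis), for the 31 endothelial members (circles) and all genes tested (diamonds). The members' median lies between 0.050 and 0.34, depending on which heart is left out, while that of all genes stays near 0.

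The intervals say how large a difference these hearts could hide. For 26 of 31 members the 95% interval of the fold change lay inside 2-fold either way, and for 5 (Cdh5, Flt1, Ly6a, Erg and Icam2) it lay inside 1.5-fold. For Vwf, Plvap, Rgcc, Sox18 and Timp4 it reached 2-fold. Cdh5, for example, had a fold of 1.11 with an interval of 0.836 to 1.48. Vwf had a fold of 1.498 with an interval of 0.557 to 4.03, so these 6 hearts leave its direction and its size unresolved. The intervals are not adjusted for the number of genes.

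**Figure D2:**
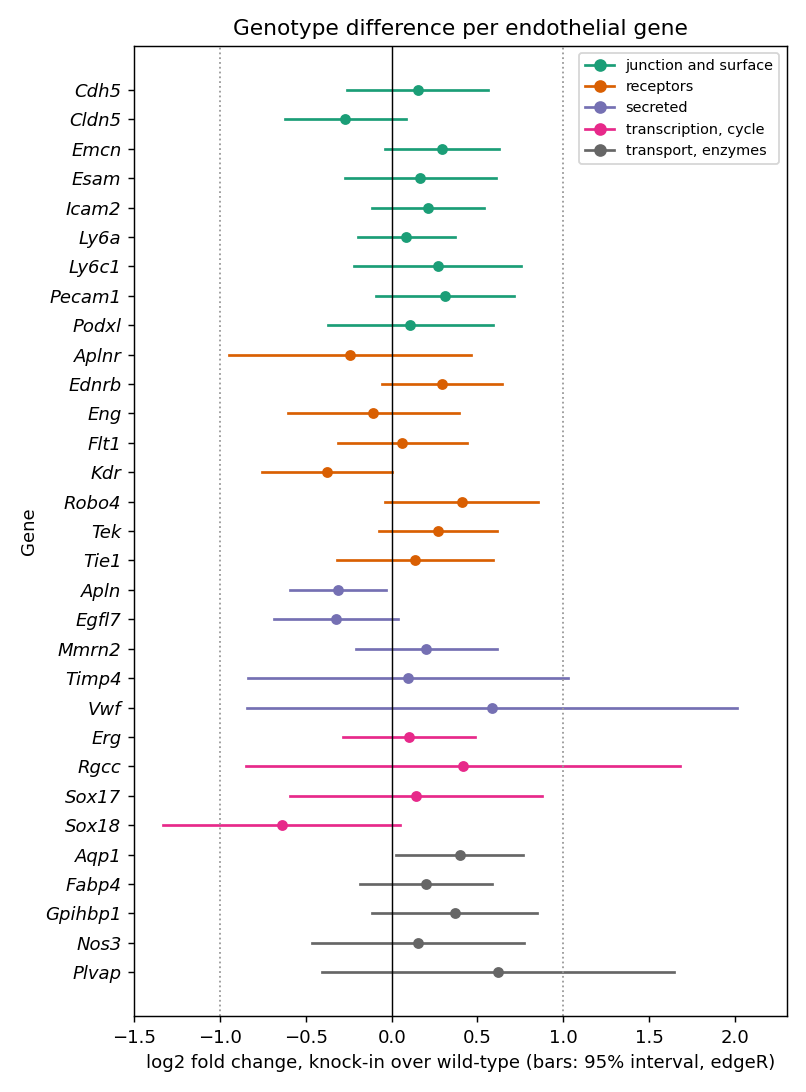
Log2 fold change of each endothelial gene (points) with its 95% interval (bars), knock-in over wild-type, coloured by role; dotted lines mark a 2-fold difference. All intervals except those of Aqp1 and Apln cross 0, and those of Vwf, Plvap, Rgcc, Sox18 and Timp4 reach a dotted line.

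Of the 9 junction and surface genes, 8 had positive values, with a median of 0.17, and none passed. Pecam1 (ENSMUSG00000020717, chromosome 11, 106654217 to 106750628), an adhesion molecule of endothelial junctions, stood at 162, 122 and 118 CPM in the wild-type and 192, 123 and 184 CPM in the knock-in hearts. Cdh5 (chromosome 8, 104101625 to 104144511), which encodes VE-cadherin, had 153, 111 and 117 CPM against 169, 104 and 152 CPM. In both genes wild-type replicate 1 stood with knock-in replicates 1 and 3, and wild-type replicates 2 and 3 stood with knock-in replicate 2. The log2 fold changes were 0.31 ± 0.18 for Pecam1 and 0.15 ± 0.18 for Cdh5 (edgeR adjusted p = 0.635 and 0.862).

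The other 7 genes of this group gave log2 fold changes of −0.27 to 0.29. In Esam, an adhesion molecule of tight junctions, the same 3 hearts were highest, with 60.7, 48.7 and 42.3 CPM and 71.0, 41.3 and 58.1 CPM. Emcn, the sialoglycoprotein endomucin, had 39.7, 31.6 and 34.5 CPM in wild-type and 43.1, 34.9 and 51.6 CPM in knock-in hearts. Podxl, a sialomucin of the luminal surface, had 131, 95.9 and 155 CPM and 159.8, 100.5 and 152 CPM, with wild-type replicate 3 high and not low. Cldn5, the main claudin of endothelial tight junctions, was the 1 member of the group with a negative value (−0.27 ± 0.16), at 10.2, 9.63 and 10.7 CPM against 10.1, 7.64 and 7.57 CPM. Knock-in replicates 2 and 3 lay below all wild-type hearts, and replicate 1 lay among them.

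Icam2, a ligand of leukocyte integrins, had 20.2, 21.9 and 17.4 CPM and 26.4, 19.04 and 23.4 CPM. The membrane-anchored Ly6 proteins, which also mark some blood cells, were more abundant. Ly6c1 had 129, 126 and 85.4 CPM in wild-type and 171, 99.9 and 138 CPM in knock-in hearts, and Ly6a had 97.7, 101 and 85.4 CPM and 119, 86.4 and 96.2 CPM, so the genotypes overlapped for both. Of the 31-base words of the Ly6c1 transcript, 57.1% also occur in other genes, chiefly the monocyte gene Ly6c2, so its value is uncertain. Ly6c2 itself was counted at 0 to 0.395 CPM. Of the words of Ly6a, 22.1% are shared, chiefly with Ly6c1.

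**Figure D3:**
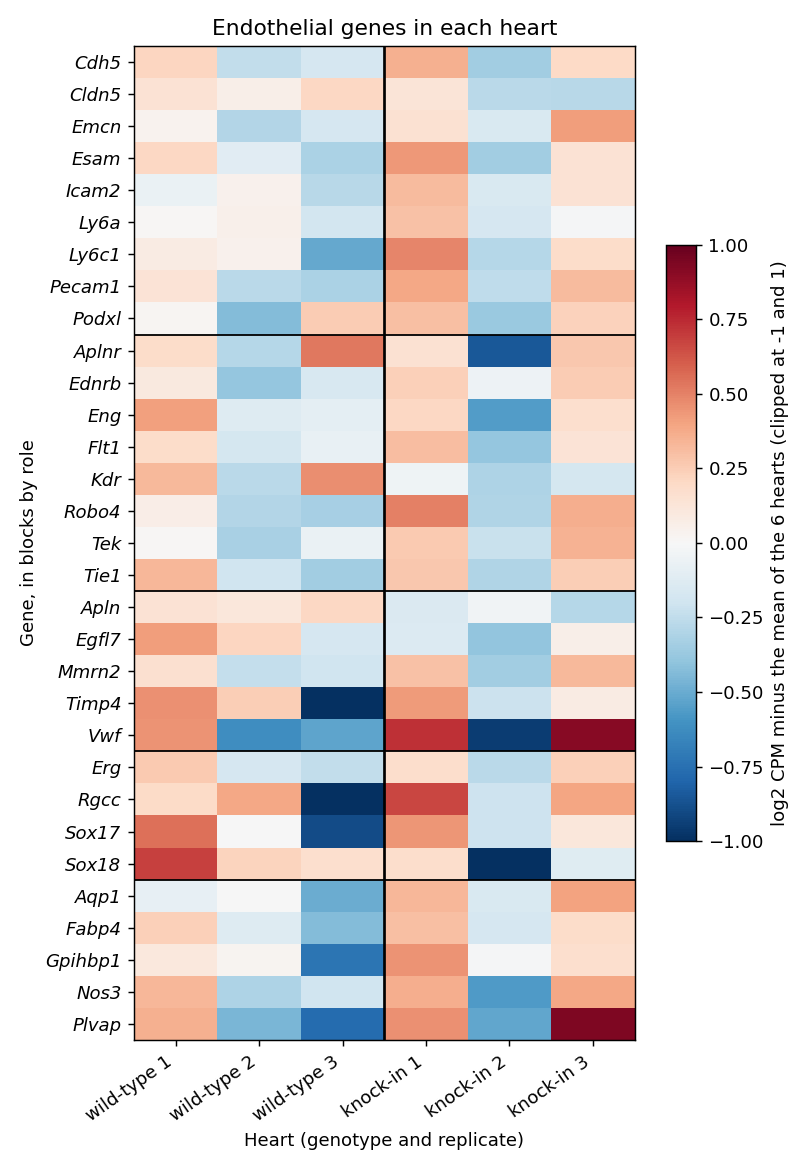
Level of each endothelial gene (rows, in blocks by role) in each heart (columns), as log2 CPM minus the mean of the 6 hearts, with red above and blue below that mean. Wild-type 1, knock-in 1 and knock-in 3 are mostly red and knock-in 2 is blue in all rows, while Kdr, Cldn5, Aplnr and Apln are highest in wild-type 3.

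Of the 8 receptor genes, 5 had positive and 3 negative values, with a median of 0.099, and none passed. Kdr (ENSMUSG00000062960, chromosome 5, 75932827 to 75978458), the main signalling receptor for VEGF, had 157, 104 and 173 CPM in wild-type and 122, 102 and 111 CPM in knock-in hearts. Wild-type replicates 1 and 3 stood above all knock-in hearts and wild-type replicate 2 within them. The log2 fold change was −0.38 ± 0.17 (edgeR adjusted p = 0.501, unadjusted p = 0.0504). Flt1, the VEGF receptor that mainly acts as a decoy, gave 0.06 ± 0.17, with 122, 95.02 and 102 CPM and 133, 82.4 and 119 CPM, and its sign turned in 2 of the 17 alternatives.

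Tek, the angiopoietin receptor, had 45.7, 36.1 and 43.3 CPM in wild-type and 54.4, 38.8 and 57.6 CPM in knock-in hearts (0.27 ± 0.16). Tek passed in 1 setting, with wild-type replicate 3 and knock-in replicate 2 both left out (0.46, edgeR adjusted p = 0.0424). In that setting, chosen after seeing the data, 3.04% of all genes passed. Its partner Tie1 had 95.4, 66.3 and 59.7 CPM and 91.3, 61.6 and 90.3 CPM (0.14 ± 0.20). Robo4, a guidance receptor that stabilises vessels, had 31.4, 24.5 and 23.8 CPM and 42.7, 24.4 and 38.7 CPM. Its log2 fold change was 0.41 ± 0.20 (adjusted p = 0.553), and it was the 1 member that passed without knock-in replicate 2 (0.63, adjusted p = 0.0429), a fit in which 1.34% of all genes passed. It also passed without both that heart and wild-type replicate 3 (0.55, adjusted p = 0.0246), as 3.04% of all genes did.

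Eng, or endoglin, a co-receptor for bone morphogenetic proteins, had 165, 114 and 116 CPM and 143, 84.4 and 139 CPM (−0.11 ± 0.22). Ednrb, the endothelin B receptor, had 15.2, 10.8 and 12.7 CPM and 16.8, 13.7 and 16.9 CPM (0.29 ± 0.16). Aplnr, the apelin receptor, had 27.5, 19.7 and 34.8 CPM and 26.9, 13.4 and 29.1 CPM (−0.24 ± 0.31); its highest heart was wild-type replicate 3 and its lowest knock-in replicate 2. All of these receptors overlapped between the genotypes.

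Apln (ENSMUSG00000037010, X chromosome, 48025146 to 48034853), which encodes the peptide ligand of Aplnr, was the member that separated the genotypes. It had 15.1, 14.8 and 15.7 CPM in wild-type and 12.3, 13.2 and 11.1 CPM in knock-in hearts, so all knock-in values lay below all wild-type values. The log2 fold change was −0.31 ± 0.13 (edgeR adjusted p = 0.442, unadjusted p = 0.0329), a fold of 0.805 with a 95% interval of 0.663 to 0.979. Permuting the 6 values over the genotypes (exact, two-sided) gave p = 0.1, the smallest value possible with 3 against 3. The negative sign was kept in all 17 alternatives, from −0.36 to −0.25, with adjusted p from 0.227 to 0.884. The spread within a genotype was small, a coefficient of variation of 3.22% in wild-type and 8.74% in knock-in hearts, where the counting error at its lowest count of 163 is 7.83%.

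Promoter sequence is shown for 3 of the receptors and for Apln, since they differ in which heart was highest. Within the wild-type, Flt1 and Eng were highest in replicate 1, and Kdr and Apln in replicate 3. Each run holds the 250 bases before the RefSeq start site (GRCm38.p6), 5′ to 3′ on the gene's strand. Flt1 is at chr5:147726012-147726261 (minus strand), Eng at chr2:32646345-32646594 (plus), Kdr at chr5:75978456-75978705 (minus) and Apln at chrX:48034854-48035103 (minus). Capitals mark AGGAAG or CGGAAG on either strand, letters that contain the GGAA core bound by ETS factors such as Erg.
Flt1: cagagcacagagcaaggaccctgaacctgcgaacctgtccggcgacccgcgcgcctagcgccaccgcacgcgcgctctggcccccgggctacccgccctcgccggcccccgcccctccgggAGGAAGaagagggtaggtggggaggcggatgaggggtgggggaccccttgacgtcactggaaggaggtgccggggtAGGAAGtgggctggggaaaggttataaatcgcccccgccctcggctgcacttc
Eng: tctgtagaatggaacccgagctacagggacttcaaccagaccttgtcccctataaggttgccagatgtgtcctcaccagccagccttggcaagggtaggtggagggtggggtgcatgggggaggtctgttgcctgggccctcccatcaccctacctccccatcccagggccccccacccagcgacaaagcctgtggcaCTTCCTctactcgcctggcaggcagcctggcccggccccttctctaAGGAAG
Kdr: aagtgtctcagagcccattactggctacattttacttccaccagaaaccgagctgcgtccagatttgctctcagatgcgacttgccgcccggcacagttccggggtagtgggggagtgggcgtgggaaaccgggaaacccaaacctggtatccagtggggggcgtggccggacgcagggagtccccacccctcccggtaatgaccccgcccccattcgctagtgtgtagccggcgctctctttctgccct
Apln: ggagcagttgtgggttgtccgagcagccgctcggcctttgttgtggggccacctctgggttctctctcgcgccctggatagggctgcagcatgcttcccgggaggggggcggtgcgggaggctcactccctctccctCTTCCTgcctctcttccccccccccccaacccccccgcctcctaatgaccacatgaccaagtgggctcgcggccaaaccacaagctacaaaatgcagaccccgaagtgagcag

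Flt1 and Eng each hold 2 matches in this window, Apln 1 and Kdr 0. The windows of Tek and Ednrb, which like Flt1 and Eng were highest in wild-type replicate 1 among the wild-type hearts, hold 0. RefSeq windows were matched for 16 of 31 members, 21 windows in all, and 13 of the 21 (61.9%) hold at least 1 of the 2 words on either strand, against 39.2% of 32851 windows of the same length. For AGGAAG alone the shares were 61.9% and 29.5%, for CGGAAG 4.76% and 13.6%, and for the bare GGAA 90.5% and 93.4%; the longer words contain the shorter one. Windows of 1 gene are not independent, and a match is a description of letters and not a bound site. Pecam1, Cdh5, Esam, Vwf, Fabp4, Ly6a, Sox17, Sox18, Nos3, Icam2, Plvap, Mmrn2, Aplnr, Gpihbp1 and Podxl were not matched.

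The other secreted proteins spread more widely. Vwf, the clotting factor stored in endothelial granules, had 111, 53.0 and 56.5 CPM in wild-type and 135, 42.2 and 154 CPM in knock-in hearts (0.58 ± 0.57, adjusted p = 0.817). Its highest heart stood 3.64-fold above its lowest, and both extremes were knock-in hearts. Vwf and Pecam1 are also made by the platelet lineage; the 7 platelet markers summed to 18.5 to 25.8 CPM in wild-type and to 36.1, 13.0 and 14.4 CPM in knock-in hearts. Of the knock-in hearts, replicate 2 was lowest for Vwf and for this sum, replicate 1 was highest for the sum and replicate 3 for Vwf. The part of platelets in these values was not tested.

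Egfl7, a secreted regulator of vessel tube formation, had 50.6, 44.0 and 33.7 CPM and 34.4, 28.8 and 39.4 CPM (−0.32 ± 0.16, adjusted p = 0.566). Of its exon bases, 11.2% overlap other genes, among them Agpat2 on the opposite strand and Gm20532 on the same strand. Mmrn2, a matrix protein of endothelium, had 41.0, 31.03 and 31.8 CPM and 44.8, 28.7 and 45.9 CPM. Timp4, a metalloproteinase inhibitor, had 73.7, 63.6 and 26.7 CPM and 72.2, 46.1 and 56.6 CPM, and wild-type replicate 3 stood apart from the other hearts. With that heart left out, the sign of Timp4 turned from 0.09 to −0.24.

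**Figure D4:**
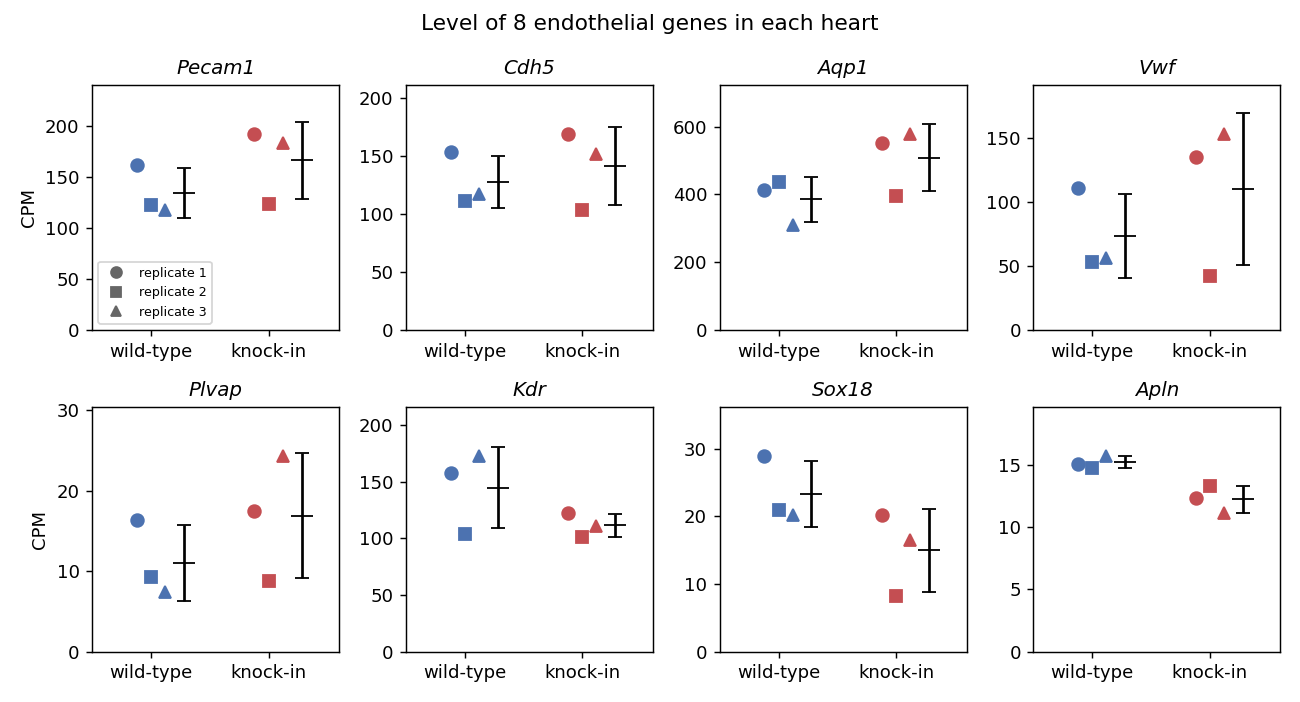
CPM (vertical axes, from 0) of 8 endothelial genes in each heart; symbols mark the replicate within a genotype and black bars the mean ± SD (n = 3). Apln separates the genotypes, Kdr and Sox18 are lower on average in the knock-in hearts with overlap, and knock-in replicate 2 lies below the other knock-in hearts in all panels except that of Apln.

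The 3 transcription factor genes had 46 to 425 counts per heart, and with Rgcc they had 3 positive values and 1 negative. Erg, an ETS factor that keeps endothelial genes on, varied least of these, with 28.4, 20.98 and 19.9 CPM in wild-type and 26.7, 19.6 and 27.9 CPM in knock-in hearts (0.10 ± 0.17). Sox18 (ENSMUSG00000046470, chromosome 2, 181669836 to 181671640), a SOX factor of vessel and lymphatic growth, had 29.0, 20.9 and 20.1 CPM and 20.2, 8.17 and 16.5 CPM. This was the most negative log2 fold change of the members, −0.64 ± 0.30 (adjusted p = 0.538). Knock-in replicate 2 was far below the rest, and without it the value was −0.33. Without the low-count filter Sox18 passed (adjusted p = 0.0460), a setting in which 1.46% of all genes did.

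Sox17, its arterial relative, had 8.93, 6.03 and 3.18 CPM and 8.26, 5.20 and 6.54 CPM, with no common direction (0.14 ± 0.33). Of its exon bases, 16.8% overlap Gm37587 on the opposite strand, and the strand setting of the counting is not given in the sources used here. Rgcc, a cell cycle regulator abundant in capillaries, had 42.7, 48.8 and 13.8 CPM and 59.2, 32.3 and 48.9 CPM (0.42 ± 0.50). Its highest heart stood 4.30-fold above its lowest, wild-type replicate 3, and without that heart the log2 fold change was 0.033.

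All 5 transport and enzyme genes had positive values, with a median of 0.37, and none passed. Aqp1 (ENSMUSG00000004655, chromosome 6, 55336432 to 55348555) had 412, 435 and 310.3 CPM in wild-type and 551, 394 and 578 CPM in knock-in hearts (0.40 ± 0.16, edgeR adjusted p = 0.461, unadjusted p = 0.0374). Knock-in replicates 1 and 3 stood above all wild-type hearts, and knock-in replicate 2 within them. It passed without the low-count filter (edgeR adjusted p = 0.0209), as 1.46% of all genes did. It also passed with wild-type replicate 3 and knock-in replicate 2 both left out (edgeR adjusted p = 0.0111), as 3.04% did. Those 2 hearts were chosen after seeing the data.

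Aqp1 is also the water channel of red cells, whose genes were higher in the knock-in hearts. The 9 red-cell markers summed to 487, 657 and 665 CPM in wild-type and 1495, 1965 and 1520.5 CPM in knock-in hearts. In edgeR 6 of 8 tested were called, all higher, against 0.297% of all genes called and 0.11% called higher. Both the red-cell sum and the mean of Aqp1 were thus higher in the knock-in hearts, while within the knock-in the heart with the highest red-cell sum, replicate 2, had the lowest Aqp1. The part of red cells in the Aqp1 values was not tested.

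Plvap, which forms the diaphragms of caveolae and fenestrae, had 16.3, 9.21 and 7.41 CPM in wild-type and 17.5, 8.83 and 24.3 CPM in knock-in hearts (0.62 ± 0.43, the most positive of the members). Nos3, the endothelial nitric oxide synthase, had 32.0, 20.4 and 22.1 CPM and 32.7, 17.1 and 33.2 CPM (0.15 ± 0.27). Of its exon bases, 32.3% overlap Atg9b and Gm15587 on the opposite strand. In both genes wild-type replicate 1 and knock-in replicates 1 and 3 were the 3 highest hearts, as for Cdh5; the lowest was wild-type replicate 3 for Plvap and knock-in replicate 2 for Nos3.

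Of the members, 2 serve fatty acid transfer. Gpihbp1, which carries lipoprotein lipase to the capillary surface, had 72.1, 68.4 and 40.4 CPM in wild-type and 91.7, 66.5 and 75.4 CPM in knock-in hearts (0.37 ± 0.21). Fabp4 had 505, 392 and 317 CPM and 527, 381 and 487 CPM (0.20 ± 0.17). Fabp4 is also the fatty acid binding protein of fat cells. The 9 fat-cell markers summed to 22.0 to 23.8 CPM in wild-type and 31.7 to 38.1 CPM in knock-in hearts, so this sum separated the genotypes. Nearly all of it was Cidea, a lipid droplet protein, at 23.2, 21.9 and 21.04 CPM in wild-type and 37.0, 31.6 and 32.9 CPM in knock-in hearts (log2 fold change 0.62 ± 0.11, edgeR adjusted p = 0.0667, DESeq2 adjusted p = 0.00344). Of the defining markers, Plin1 had 0 counts in all hearts and Adipoq at most 0.0682 CPM, below the floor of 3 counts (0.192 to 0.212 CPM). The part of fat cells in the Fabp4 values was not tested.

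The other genes of capillary fatty acid uptake were mixed in sign. Of 9 tested genes of that list that are not members, 5 were positive and 4 negative, with a median of 0.090, and none was called in edgeR or DESeq2. An unadjusted p under 0.05 in edgeR was reached by 2 of the 9, both lower in the knock-in: Vegfb (−0.36 ± 0.14) and Tcf15 (−0.55 ± 0.23). Over all genes the share was 9.97%, with 5.23% lower. Lpl, the lipase that Gpihbp1 carries, had −0.26 ± 0.12 (edgeR adjusted p = 0.501).

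Many members shared an order of the hearts. Relative to the 6-heart mean, the median log2 level of the members was 0.19, −0.17 and −0.20 in the wild-type hearts and 0.30, −0.28 and 0.20 in the knock-in hearts, replicates 1 to 3 in turn. Knock-in replicate 2 was below the mean for 31 of 31 members. Within the wild-type, replicate 1 was the highest heart for 22 of 31 members and the lowest for 0, against 33.1% and 31.9% of all genes. Within the knock-in, replicate 2 was the lowest heart for 29 of 31, against 40.1% of all genes; the exceptions were Cldn5 and Apln. Both held at once for 22 of 31 members (71.0%) and for 20.2% of all genes. This order was noticed in the data and carries no test.

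Other cell types were read the same way. Over 16 endothelial and pathway lists without the members, each gene counted once, 66 of 148 (44.6%) showed the same double order. The lists ranged widely, and they share genes. The share was 14 of 20 (70.0%) for a list of further endothelial genes and 9 of 13 (69.2%) for the bone morphogenetic protein list. It was 7 of 14 for arterial genes, 5 of 19 (26.3%) for endothelial transcription factors, 3 of 14 (21.4%) for the nitric oxide list and 1 of 6 (16.7%) for the angiopoietin list. Among the further endothelial genes was Adgrf5, an adhesion receptor of capillaries, at 191, 156 and 157 CPM in wild-type and 217, 146 and 195 CPM in knock-in hearts. The order was shown by 6 of 12 mural cell genes, 4 of 10 fibroblast genes, 2 of 10 macrophage genes, 1 of 11 heart muscle genes and 0 of 8 red-cell genes. Knock-in replicate 2 was also the lowest knock-in heart for 9 of 10 fibroblast genes and 8 of 11 heart muscle genes, so a low value there was not confined to endothelium.

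**Figure D5:**
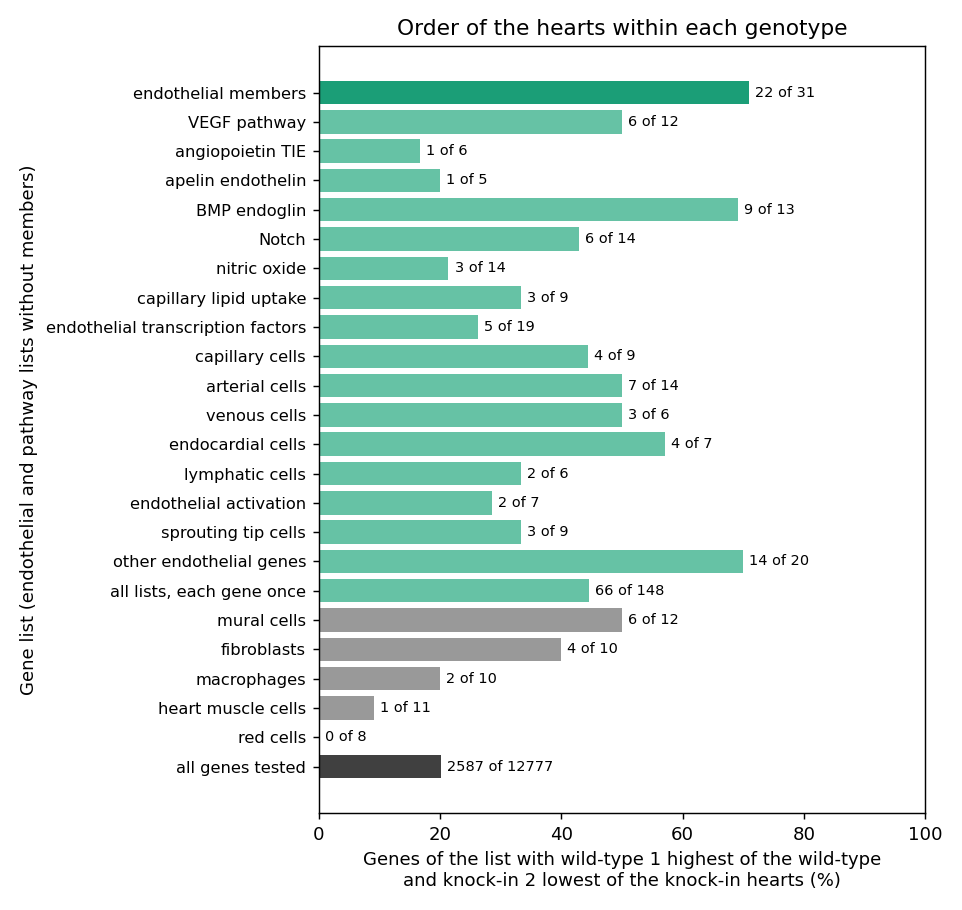
Share of the genes in each list (percent, horizontal axis) for which wild-type replicate 1 was the highest wild-type heart and knock-in replicate 2 the lowest knock-in heart; numbers give genes of genes tested. Endothelial and pathway lists are drawn without the members. The share is 71.0% for the 31 members, from 16.7% to 70.0% over the other endothelial and pathway lists, and 20.2% for all genes.

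A smaller set went another way. In wild-type replicate 3, which was the lowest of the 6 hearts for 13 members, Kdr, Cldn5, Aplnr and Apln were at their highest, while Rgcc, Timp4, Sox17, Gpihbp1 and Ly6c1 were at their lowest. Lpl, which heart muscle makes, was highest there too, at 7300 CPM against 4782 to 6375 CPM in the other hearts.

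Other genes of the endothelial pathways were read from lists without the members. Of these, the VEGF list had 9 of 12 tested positive and a median of 0.055, the angiopoietin list 3 of 6 and −0.038, and the Notch list 7 of 14 and −0.034. The bone morphogenetic protein list had 7 of 13 and 0.051, the nitric oxide list 8 of 14 and 0.067, and the apelin and endothelin list 4 of 5 and 0.12. None of these genes was called in edgeR, where 0.297% of all genes were, or in DESeq2, where 1.17% were. An unadjusted p under 0.05 in edgeR was reached by 1 of 12 VEGF genes, 1 of 14 Notch genes and 1 of 14 nitric oxide genes, all lower. It was reached by 1 of 13 bone morphogenetic protein genes, higher, by 0 of 6 angiopoietin genes and by 0 of 5 apelin and endothelin genes. Over all genes the share was 9.97%. By the smallest p, the genes named are Vegfb (−0.36 ± 0.14, SE), a VEGF of fatty acid transport, Angpt2 (−0.44 ± 0.22), the antagonist ligand of Tek, and Nrarp (−0.71 ± 0.24), a feedback target of Notch. Bmp4 had 0.85 ± 0.32 and Spr, which makes a cofactor of Nos3, −0.41 ± 0.14. Their adjusted p-values ran from 0.326 to 0.545.

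Further transcription factors of endothelium had 7 of 19 positive and a median of −0.057. Tcf15, which with Meox2 drives fatty acid transport genes in heart capillaries, was lowest in p, at 5.18, 4.85 and 6.37 CPM in wild-type and 3.97, 2.70 and 4.50 CPM in knock-in hearts (log2 fold change −0.55 ± 0.23, adjusted p = 0.449). Its genotypes did not overlap, as for 16.1% of all genes. Sprouting genes other than Apln had 2 of 9 positive and a median of −0.11, and none was called.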

How the data were processed

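The files hold whole-number read counts per Ensembl gene, deposited by the authors in 1 table with 1 column per heart, unscaled. Per the submitters' processing notes, which assign no roles, the build was GRCm38.p6 and the tools included featureCounts, DESeq2, STAR and Subread 1.5.2. Strand setting, annotation release and treatment of reads with several matches were not given in the sources used here, so genes with overlapping or repeated sequence can gain or lose reads. The labels' protocols name RNeasy columns and the NEBNext Ultra II kit.

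Names came from GENCODE M21 (49056 of 49315 identifiers). All genes were fitted with edgeR 4.0.16 in R 4.3.3: filterByExpr, TMM, robust glmQLFit and glmQLFTest on genotype, with Benjamini-Hochberg adjustment over 12777 genes; called means an adjusted p under 0.05. SE is the log2 fold change over the root of F, and intervals are 95%. DESeq2 1.42.0, limma-voom (limma 3.58.1), other scalings and filters, and each heart left out were alternatives. The functions were tested on simulated counts. Library totals of 14146048 to 15620476 put 3 counts at 0.192 to 0.212 CPM; with no molecular identifiers, that floor covers counting error only. Within each genotype, no 2 hearts agreed within counting error (chi-square over its degrees of freedom, 7.16 to 27.0). All 31 members are named, and in the endothelial and pathway lists the gene with the smallest p. Lists of other cell types are mostly given as sums, and not all of their called genes are named. Adgrf5, Lpl, Meox2, Ly6c2, Adipoq and Plin1, and the 4 printed promoters, were chosen after their values were seen. Members and lists were chosen with earlier results of these data known.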

Additional observations from a re-analysis of the deposited data

How the results depend on the processing

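The member count was 0 in the main analysis and under RLE, upper-quartile and library-size scaling, a mean of at least 1 CPM, DESeq2, limma-voom, no robust estimation, no mitochondrial genes and an adjusted p under 0.1. It was 2 without a low-count filter (Aqp1 and Sox18), and 0 to 1 with 1 heart left out. With 4 libraries, without wild-type 3 and knock-in 2, a choice made after seeing the data, it was 3 (Tek, Aqp1 and Robo4). The count over all genes, 38, was 317 without a filter, 139 with DESeq2, 18 with limma-voom, 75 at an adjusted p under 0.1 and 392 with those 4 libraries. Leaving out 1 heart gave 5 (without wild-type replicate 2) to 174 (without knock-in replicate 2). In those fits the log2 fold change of Txnip lay between −0.87 and −0.78, and it no longer passed once wild-type replicate 2 (−0.80, adjusted p = 0.0525) or knock-in replicate 3 (−0.86, adjusted p = 0.0642) was dropped. Fewer hearts were fitted in those cases; the cause was not tested. The fold of the summed CPM of the members, 1.14, was 1.10 by library size, 1.14 by RLE and 1.10 without Aqp1, the member of highest CPM. No paired analysis was possible because replicates were only numbered by accession, which ties no heart to another.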

Other observations

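Genes of the endocardium, the inner lining of the heart, were not described above. Of 7 tested endocardial genes that are not members, 5 had a positive value, with a median log2 fold change of 0.23, and none passed in edgeR or DESeq2. Nrg1, a growth factor that the endocardium sends to heart muscle, had 2.32, 1.247 and 1.38 CPM in wild-type and 2.67, 3.62 and 4.16 CPM in knock-in hearts (log2 fold change 1.07 ± 0.30 SE, edgeR adjusted p = 0.224). All 3 knock-in hearts lay above the wild-type hearts, as for 8.12% of all genes. Knock-in replicate 2 was not the lowest knock-in heart for Nrg1.

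Vcam1, an adhesion molecule of activated and venous endothelium that other cells also make, had 16.8, 14.2 and 15.4 CPM in wild-type and 20.8, 24.4 and 29.1 CPM in knock-in hearts. The log2 fold change was 0.68 ± 0.15 (edgeR adjusted p = 0.118), higher in 3 of 3 knock-in hearts than in any wild-type heart. With DESeq2 it passed (log2 fold change 0.68 ± 0.18, adjusted p = 0.0135), as 1.17% of all genes did. Of the 7 tested genes in the activation list, 3 were positive, with a median of −0.31, and none passed in edgeR. The arterial list without members had 6 of 14 positive, with Gja5, a connexin of arteries and conduction tissue, at 0.54 ± 0.22 (adjusted p = 0.432). The lymphatic list had 2 of 6 positive, with Mmrn1 at 0.41 ± 0.24 (adjusted p = 0.629).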
